A study of Mus musculus with 18 samples.

Results

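Gene expression was compared between brain hemispheres of 4 R6/1 transgenic mice and 3 wild-type littermates, all aged 27 weeks. These 7 arrays are all those of 18 in the series whose titles give that age, and membership was decided by the titles alone. The R6/1 line carries a fragment of the human huntingtin gene, HTT, that holds exon 1 with an expanded CAG repeat and is driven by the human gene's own promoter. The mice keep both endogenous Htt copies, so the wild-type group differs from the transgenic group by the absence of the transgene. Mice were matched for sex per the labels, and total RNA of 1 hemisphere per mouse was hybridised to an Affymetrix mouse genome array. The labels name no treatment. The titles place 4 transgenic samples at 27 weeks and 2 at 22 weeks, whereas the design text gives 3 per genotype at each age, and the titles were followed. The labels do not give the repeat length, the strain background or which mice shared a litter. A hemisphere mixes all brain regions, so fewer cells of a type and less RNA per cell cannot be told apart.

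Huntington's disease is caused by an expanded CAG repeat that lengthens a polyglutamine tract in huntingtin. The GABA-releasing medium spiny neurons of the striatum are affected most, and the cortical neurons that project to them are affected as well. In mice that express the exon 1 fragment, the protein collects in neuronal nuclei and transcripts of receptors, signalling enzymes and neuropeptides decline before neurons are lost in large numbers. The cerebellum, which contains granule cells and the Purkinje cells that form the only output of its cortex, is usually treated as a less affected region. A hemisphere with cerebellum attached shows striatal, cortical and cerebellar transcripts on the same array.

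All 7 arrays held cerebellum. Gabra6, the GABA receptor subunit of granule cells, read 1079.3, 1578.8, 1289.0 and 1126.5 in transgenic mice 1 to 4 and 1505.1, 1221.7 and 1570.0 in the wild-type mice. The signal is a linear intensity in MAS5 units, scaled by the authors so that each array has the same trimmed mean. Correlations of log2 signals lay between 0.9713 and 0.9778 within a genotype and between 0.968 and 0.9747 across genotypes. The first principal component held 27.21% of the variance and separated the genotypes, with wild-type scores of -28.34 to -21.98 and transgenic scores of 11.74 to 29.61. Transgenic replicate 3 stood apart on the second component, which held 18.69% of the variance, at a score of 31.63. Xist and Eif2s3y marked 1 mouse as female in each group, transgenic replicate 3 and wild-type replicate 2. The ratio of 3′ to 5′ Gapdh probe sets, a measure of RNA integrity, was 0.7219 to 0.7765 in transgenic and 0.7015 to 0.7552 in wild-type mice. Endogenous Htt read 126.3, 113.4, 117.5 and 97.3 in transgenic mice 1 to 4 and 111.9, 101.5 and 96.9 in the wild-type mice, and since probe sets of these arrays lie near the 3′ end of a transcript, it does not measure the transgene.

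In limma with Benjamini-Hochberg adjustment and a threshold of 0.05, 525 of 27021 probe sets were lower in transgenic mice (1.94%) and 172 were higher (0.637%). Represented by 1 probe set each, 323 of 12574 genes tested were lower in transgenic mice (2.57%) and 98 were higher (0.779%). The median log2 fold change of all genes was 0.03, and 43.1% of them had a negative value. The lower genes had a median wild-type signal of 330.2 and the higher genes one of 91.2. A fall of 2-fold or more was seen for 40 of the lower genes and a rise of 2-fold or more for 13 of the higher genes. Signals of the 2 genotypes did not overlap for any of these called genes. The filter on low signals requires a mean above 15.7 over the 7 arrays, and some genes passed it only through the genotype in which they were high, so that they had to differ. Among called genes this holds for 7 that were higher (Brca1, Fbln2, Gapdhs, Gm2102, Oasl2, Ppl and Usp18) and 4 that were lower (Il20rb, Lrrc10b, Nptx2 and Tph2). With no filter, Fbln2 (adjusted p = 0.082 in limma) and Ppl (adjusted p = 0.09) of these 11 did not pass. Over all genes tested, 8.99% had every transgenic mouse below every wild-type mouse and 9.77% had the reverse. Of the 421 genes called, 128 belonged to at least 1 of 34 gene lists of brain regions, cell types and pathways, and each list below is given by its counts and its median beside these values. Some genes belong to several lists. Signals are given in order of replicate, and a gene written as having fallen or risen by a value did so on the log2 scale.

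**Figure D1:**
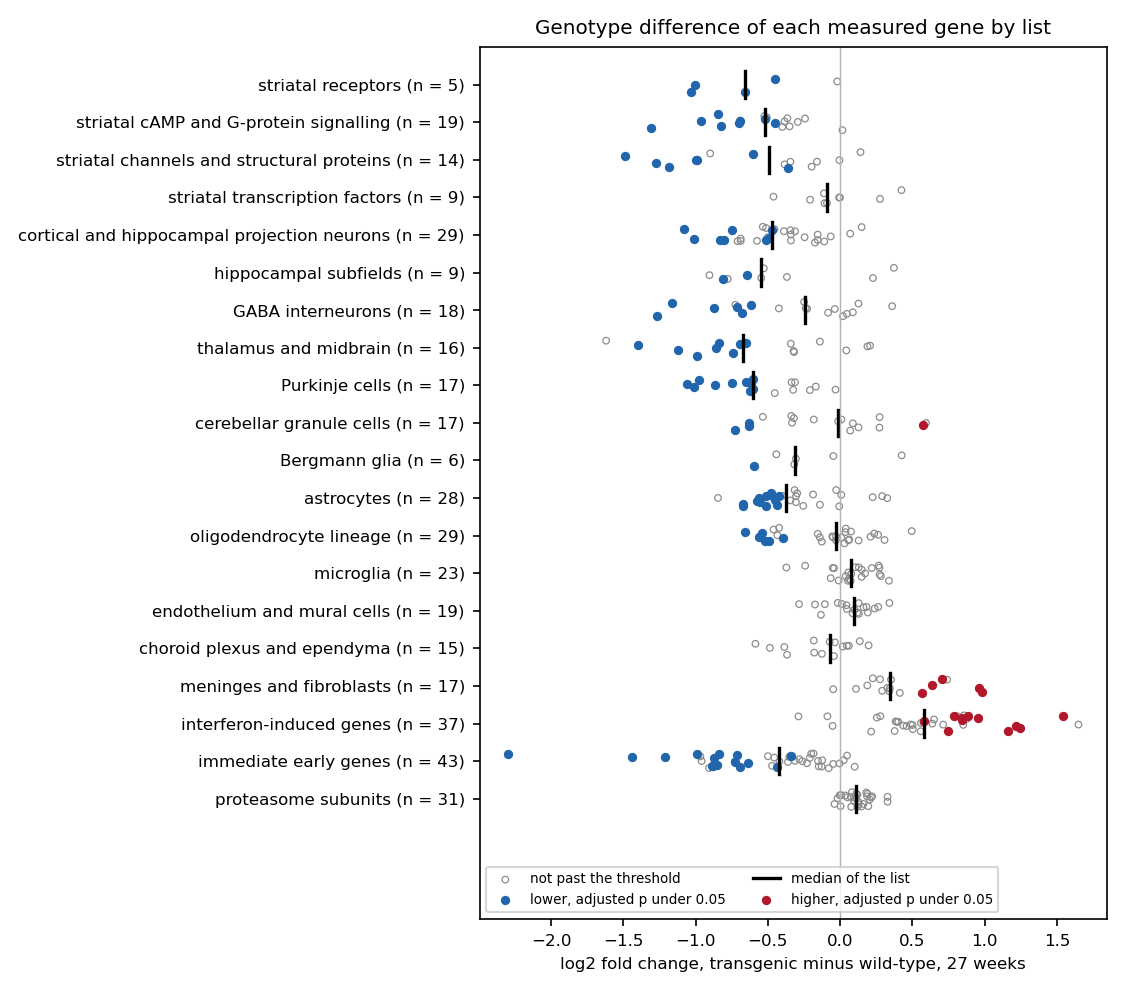
Log2 fold change (transgenic minus wild-type, x axis) of every measured gene in 20 lists, with the number of measured genes in brackets. Filled points passed the threshold, open points did not, and black bars are medians. Purkinje cell genes have a median of -0.61 with no member above 0, granule cell genes a median of -0.01, and interferon-induced genes a median of 0.58.

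Falls among striatal transcripts were those of receptors, signalling proteins, channels and peptides of medium spiny neurons. Of 47 measured genes in the 4 striatal lists, 19 fell (40.4%, against 2.57% of all genes) and 0 rose, with a median of -0.45. A negative log2 fold change was seen for 43 of the 47, against 43.1% of all genes. Among receptors, 4 of 5 measured fell. Drd2, the dopamine receptor of the indirect pathway, read 30.4, 52.8, 38.5 and 34.1 in transgenic mice 1 to 4 and 75.4, 89.6 and 80.8 in the wild-type mice (log2 fold change -1.0, SE 0.17, adjusted p = 0.014). Drd1, its counterpart in the direct pathway, read 90.2, 86.6, 79.7 and 66.6 in transgenic mice 1 to 4 and 105.8, 139.6 and 147.8 in the wild-type mice (log2 fold change -0.66, SE 0.14, adjusted p = 0.039). The genotypes did not overlap for either receptor. The orphan receptor gene Gpr6 fell by 1.03 and the cannabinoid receptor gene Cnr1 by 0.45 on the log2 scale. The kappa opioid receptor gene Oprk1 had a log2 fold change of -0.02 and overlapped between genotypes. Chrm4, a muscarinic receptor gene of these neurons, did not pass the filter on low signals and has no value here. Of the 5 measured receptors, 0 passed without wild-type replicate 2, 3 without transgenic replicate 2, and 2 when any other single array was left out.

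Of 19 measured striatal genes of cyclic AMP and G-protein signalling, 8 fell and 0 rose, with a list median of -0.52. Ppp1r1b encodes DARPP-32, a phosphatase inhibitor that integrates dopamine and glutamate input. Its signals were 127.3, 178.1, 190.0 and 178.7 in transgenic mice 1 to 4 and 391.8, 467.6 and 406.1 in the wild-type mice (log2 fold change -1.31, SE 0.13, adjusted p = 0.0012). Arpp19, a cyclic AMP-regulated phosphoprotein that many tissues express, read 598.7, 674.4, 685.9 and 676.0 in transgenic mice 1 to 4 and 1314.9, 1274.8 and 1276.7 in the wild-type mice (log2 fold change -0.96, SE 0.07, adjusted p = 0.0004). Signals of the transgenic mice lay between 598.7 and 685.9 for Arpp19 against 1274.8 or more, with no overlap. Arpp21, another such phosphoprotein gene, fell by 0.84, Rgs9, a brake on dopamine receptor signalling, by 0.82, and Rasgrp2 and Ngef, exchange factors for small GTPases, by 0.70 and 0.69. The 3 other probe sets of Rasgrp2 had log2 fold changes from -0.28 to 0.25. Adcy5, the main striatal adenylyl cyclase, fell by 0.52 and the phosphodiesterase gene Pde1b by 0.45. Pde10a, the striatal phosphodiesterase, read 262.0, 414.8, 287.8 and 368.8 in transgenic mice 1 to 4 and 497.1, 698.6 and 435.1 in the wild-type mice without overlap and did not pass (log2 fold change -0.69, adjusted p = 0.073). With wild-type replicate 2 left out, 3 of the 19 passed.

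Channels, structural proteins and neuropeptides of medium spiny neurons included the largest fall of the striatal lists, that of Lrrc10b. Lrrc10b passed the filter on low signals only through the wild-type mice, so it had to differ. Penk, the enkephalin precursor of the indirect pathway, read 305.0, 398.6, 348.7 and 402.1 in transgenic mice 1 to 4 and 797.0, 857.5 and 825.0 in the wild-type mice (log2 fold change -1.18, SE 0.10, adjusted p = 0.00093). Scn4b, a sodium channel subunit, read 153.9, 214.9, 199.0 and 196.6 in transgenic mice 1 to 4 and 476.2, 468.7 and 453.3 in the wild-type mice (log2 fold change -1.27, SE 0.11, adjusted p = 0.00093). Kcnip2, a partner of A-type potassium channels, read 161.0, 181.7, 231.6 and 181.7 in transgenic mice 1 to 4 and 353.2, 387.9 and 399.8 in the wild-type mice (log2 fold change -1.0, SE 0.12, adjusted p = 0.0025). Every transgenic mouse was below every wild-type mouse for these 3 transcripts. Lrrc10b fell by 1.49, Baiap2, a synaptic scaffold, by 0.60 and Kcnab1, a potassium channel subunit, by 0.36. Of the direct pathway peptides, Pdyn, the dynorphin precursor, read 25.0, 30.9, 17.9 and 14.1 in transgenic mice 1 to 4 and 42.2, 57.7 and 43.4 in the wild-type mice (log2 fold change -0.99, SE 0.23, adjusted p = 0.048). Tac1, the substance P precursor, read 303.6, 365.1, 356.7 and 340.8 in transgenic mice 1 to 4 and 445.7, 466.3 and 392.9 in the wild-type mice without overlap and did not pass (log2 fold change -0.34, adjusted p = 0.079). In all, 7 of 14 measured genes fell, and 5 or 6 did when any single array was left out.

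Of 9 measured striatal transcription factors, 0 passed in either direction and 2 had an unadjusted p under 0.05 in limma, with a list median of -0.09. Bcl11b, which specifies medium spiny neurons, read 221.1, 224.4, 272.1 and 286.0 in transgenic mice 1 to 4 and 303.2, 381.4 and 355.8 in the wild-type mice and had no overlap (log2 fold change -0.46, adjusted p = 0.065). Foxp1, another factor of these neurons, read 290.3, 292.0, 330.3 and 294.3 in transgenic mice 1 to 4 and 309.7, 349.6 and 317.3 in the wild-type mice, and the genotypes overlapped (log2 fold change -0.11, adjusted p = 0.56). Rarb, Isl1 and Zfp503 had log2 fold changes of -0.21, 0.28 and 0.42 and overlapped as well. The difference between this list and the other striatal lists was not tested.

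**Figure D2:**
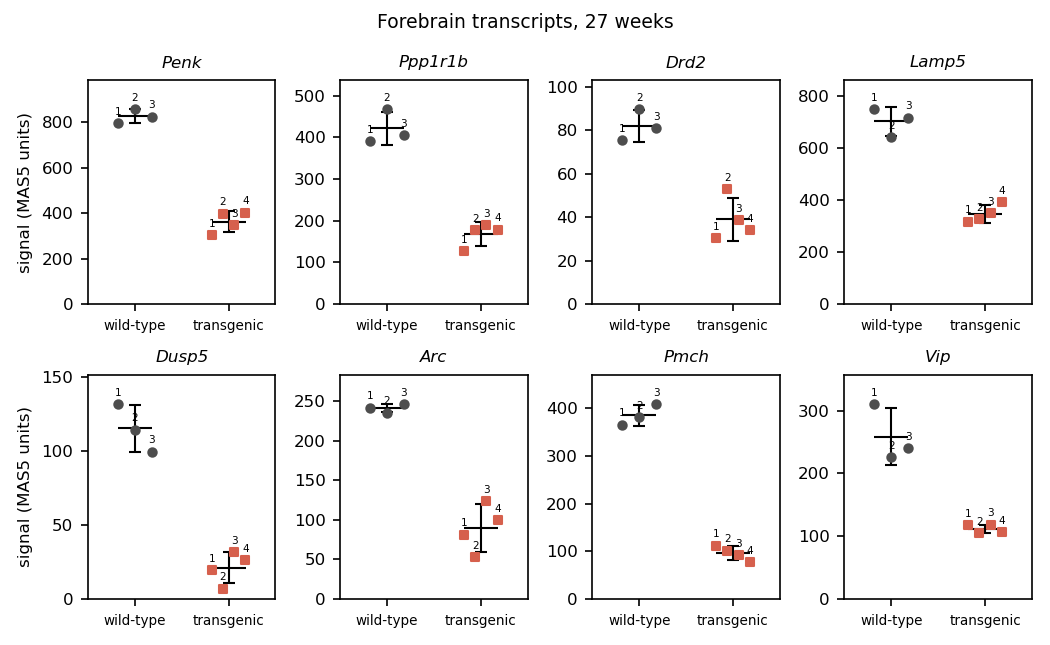
Signal (MAS5 units, y axis from 0) of 8 forebrain transcripts in 3 wild-type mice (circles) and 4 transgenic mice (squares), numbered by replicate, with mean and SD. Every transgenic point lies below every wild-type point in all 8 panels, from Penk at 305.0 to 402.1 against 797.0 to 857.5, to Dusp5 at 7.0 to 31.5 against 99.5 to 131.6.

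Falls were also seen among genes of projection neurons of cortex and hippocampus. Of 29 measured genes, 8 fell (27.6%, against 2.57% of all genes) and 0 rose, with a median of -0.47. Lamp5, a membrane protein of cortical neurons, read 317.2, 325.0, 349.0 and 392.4 in transgenic mice 1 to 4 and 748.1, 641.3 and 716.3 in the wild-type mice (log2 fold change -1.01, SE 0.09, adjusted p = 0.0011). Itpka, which phosphorylates inositol trisphosphate in spines, read 123.5, 167.6, 186.3 and 163.2 in transgenic mice 1 to 4 and 323.2, 371.5 and 331.2 in the wild-type mice (log2 fold change -1.08, SE 0.13, adjusted p = 0.0025). Every transgenic mouse was below every wild-type mouse for both transcripts. Ddn, which encodes the dendritic protein dendrin, fell by 0.83, the potassium channel gene Kcnh3 by 0.80, and the cholecystokinin receptor gene Cckbr by 0.75. Nptx1, a synaptic pentraxin, fell by 0.51, Rasgrf2, a Ras exchange factor, by 0.49 and Nrn1, the neurite growth factor neuritin, by 0.47. Slc17a7, the vesicular glutamate transporter of cortical, hippocampal and granule cell synapses, read 197.0, 228.6, 254.5 and 229.5 in transgenic mice 1 to 4 and 281.7, 468.9 and 273.0 in the wild-type mice and did not pass (log2 fold change -0.54, adjusted p = 0.13). Without wild-type replicate 2, which had the highest Slc17a7 signal, 5 genes passed and the median was -0.36.

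Markers of hippocampal subfields had a median of -0.55 over 9 measured genes, of which 2 fell and 0 rose. C1ql2, a synaptic organiser of dentate granule cells, read 22.3, 19.7, 19.1 and 24.4 in transgenic mice 1 to 4 and 51.2, 35.3 and 39.1 in the wild-type mice (log2 fold change -0.81, SE 0.18, adjusted p = 0.04). Cabp7, a calcium-binding protein, fell by 0.65. Spink8 and Wfs1 of the CA1 field and Dsp of the dentate gyrus did not overlap between genotypes but did not pass, at -0.78, -0.55 and -0.90. None of the 9 genes passed when wild-type replicate 2 was left out.

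Among lists of cerebellar cell types, falls were seen for Purkinje cell genes and for 3 granule cell genes. The granule cell list had a median near 0. A whole hemisphere does not place a fall in the cerebellum. Of 17 Purkinje cell genes measured, 10 fell (58.8%, against 2.57% of all genes) and 0 rose. All 17 had a negative log2 fold change, with a median of -0.61. Pcp2, a G-protein modulator largely restricted to Purkinje cells in brain, read 689.0, 906.7, 652.6 and 628.2 in transgenic mice 1 to 4 and 1506.4, 1352.7 and 1452.6 in the wild-type mice (log2 fold change -1.01, SE 0.12, adjusted p = 0.0023). Gng13, a G-protein gamma subunit, read 278.0, 312.5, 245.8 and 280.4 in transgenic mice 1 to 4 and 561.1, 470.6 and 505.3 in the wild-type mice (log2 fold change -0.86, SE 0.10, adjusted p = 0.002). Every transgenic mouse was below every wild-type mouse for both genes. Car8, a carbonic anhydrase relative that binds the inositol trisphosphate receptor, read 516.6, 911.9, 494.3 and 565.8 in transgenic mice 1 to 4 and 1359.8, 1092.8 and 1343.3 in the wild-type mice (log2 fold change -1.06, SE 0.18, adjusted p = 0.014). Transgenic replicate 2 was the closest to the wild-type mice for Car8, Pcp2 and Gng13. It also had the highest Gabra6 signal of the 7 mice, at 1578.8. Whether Purkinje signals vary with the amount of cerebellum in each hemisphere was not tested. Ppp1r17, a phosphatase inhibitor that serves as substrate of the cyclic GMP-dependent kinase, fell by 0.97 and Slc1a6, the Purkinje glutamate transporter, by 0.75. The transcription factor gene Lhx1 fell by 0.65 and Inpp5a, an inositol phosphatase, by 0.60. The other probe set of Lhx1 had a log2 fold change of -0.06.

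Some of the called Purkinje genes are also strongly expressed elsewhere. Calb1, the calcium buffer calbindin, which striatal and hippocampal neurons share, read 1186.3, 1430.8, 1368.4 and 1308.9 in transgenic mice 1 to 4 and 1980.4, 1984.9 and 2147.5 in the wild-type mice (log2 fold change -0.62, SE 0.08, adjusted p = 0.0033). Pvalb, the parvalbumin of Purkinje cells and many interneurons, fell by 0.61, and Kitl, a ligand of the Kit receptor, by 0.60. The 3 other probe sets of Kitl had log2 fold changes from -0.44 to 0.03. In the summed signal of the 17 genes, transgenic mice ranged from 6830.2 to 8660.1 and wild-type mice from 11017.9 to 11624.8. Without wild-type replicate 1, 2 or 3, 6, 6 and 5 of the genes passed, and without both transgenic arrays with Gh above 300, 10 passed. When all 18 arrays of the series shared 1 estimate of the spread, 2 passed, and 3 of the added wild-type arrays were low in Gabra6.

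The granule cell list of 17 measured genes gave 3 falls (17.6%, against 2.57% of all genes) and 1 rise (5.9%, against 0.779%), with a median of -0.01. Every transgenic mouse was below every wild-type mouse for 7 of the genes and above for 2, against 8.99% and 9.77% of all genes. In the summed signal of the list, transgenic mice ranged from 8079.2 to 9604.7 and wild-type mice from 10040.6 to 10341.9. Gabra6 differed by -0.18 on the log2 scale (SE 0.13, adjusted p = 0.53) and overlapped between genotypes. So did Fat2, a cadherin of parallel fibres, at -0.01. Cbln1, the secreted organiser that joins parallel fibres to Purkinje cell dendrites, read 586.6, 888.4, 723.8 and 673.4 in transgenic mice 1 to 4 and 975.8, 1164.6 and 1178.8 in the wild-type mice (log2 fold change -0.63, SE 0.13, adjusted p = 0.027). Its relative Cbln3 read 534.0, 792.6, 670.9 and 544.5 in transgenic mice 1 to 4 and 981.4, 1031.7 and 1118.7 in the wild-type mice (log2 fold change -0.73, SE 0.13, adjusted p = 0.015). Grin2c, the NMDA receptor subunit of mature granule cells, fell by 0.63. Among transgenic mice, replicate 2 was the highest for Gabra6, Cbln1, Cbln3 and Grin2c. Whether the falls of Cbln1, Cbln3 and Grin2c follow the amount of cerebellum in each hemisphere was not tested. Pax6, a transcription factor of granule cells and forebrain progenitors, read 153.4, 160.6, 156.4 and 142.0 in transgenic mice 1 to 4 and 99.9, 94.7 and 108.9 in the wild-type mice (log2 fold change 0.57, SE 0.10, adjusted p = 0.012). Leaving out both arrays with high Gh moved the list median to -0.28, with 2 falls and 0 rises. No gene of the list passed without wild-type replicate 2. The count was 0 falls and 1 rise without wild-type replicate 3, and 3 falls and 0 rises without wild-type replicate 1. Transgenic replicate 1, 3 or 4 left out gave 1 fall and 1 rise.

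Bergmann glia are the radial astrocytes that surround Purkinje cell dendrites. Of 6 genes measured, 1 fell, and the median was -0.31. None of the 6 fell in limma without wild-type replicate 1, without wild-type replicate 3, which gave 1 rise and a median of -0.196, or without both arrays high in Gh. A2m, a protease inhibitor, read 91.1, 82.7, 91.0 and 84.3 in transgenic mice 1 to 4 and 134.2, 121.8 and 148.4 in the wild-type mice (log2 fold change -0.59, SE 0.10, adjusted p = 0.015). Gdf10, the most specific gene of this list, read 115.8, 144.5, 130.9 and 134.0 in transgenic mice 1 to 4 and 163.7, 195.1 and 181.2 in the wild-type mice and did not pass (log2 fold change -0.44, adjusted p = 0.052). Fabp7, a fatty acid carrier, read 496.1, 430.8, 560.5 and 456.3 in transgenic mice 1 to 4 and 287.1, 319.0 and 503.2 in the wild-type mice and overlapped.

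**Figure D3:**
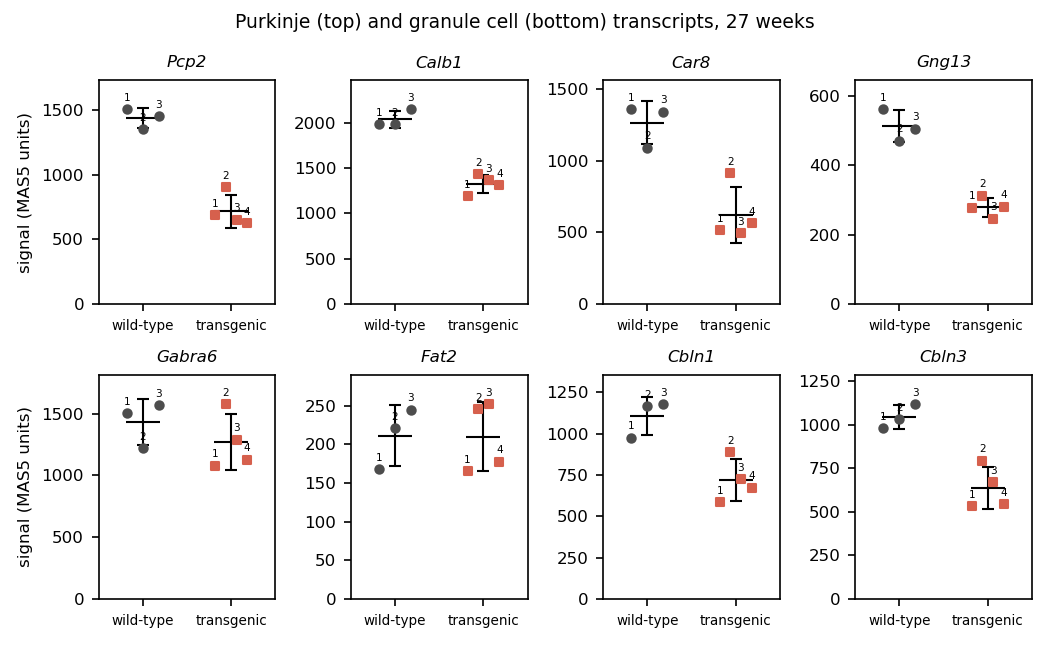
Signal (MAS5 units, y axis from 0) of 4 Purkinje cell transcripts in the top panels and 4 granule cell transcripts below, in 3 wild-type mice (circles) and 4 transgenic mice (squares), numbered by replicate, with mean and SD. Pcp2, Calb1, Car8 and Gng13 do not overlap between genotypes, Gabra6 and Fat2 do, and Cbln1 and Cbln3 do not.

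Several interneuron peptides fell in transgenic mice, and some of these peptides are also made in the hypothalamus. Of 18 measured interneuron genes, 6 fell and 0 rose, with a median of -0.24. Vip, the vasoactive intestinal peptide, read 117.2, 105.3, 118.1 and 106.4 in transgenic mice 1 to 4 and 310.7, 225.5 and 240.0 in the wild-type mice (log2 fold change -1.16, SE 0.12, adjusted p = 0.0012). Crh, the corticotropin-releasing hormone, read 32.2, 35.5, 36.4 and 45.3 in transgenic mice 1 to 4 and 103.5, 79.3 and 109.3 in the wild-type mice (log2 fold change -1.26, SE 0.15, adjusted p = 0.0031). The genotypes were far apart for both, with no overlap. Sst, the precursor of somatostatin, fell by 0.88, Npy by 0.71, Cck by 0.68 and Pvalb by 0.61. Gad1, which makes GABA in all of these cells, read 1502.1, 1750.6, 1600.6 and 1674.8 in transgenic mice 1 to 4 and 2082.4, 1843.5 and 1894.4 in the wild-type mice, did not overlap and did not pass (log2 fold change -0.25, adjusted p = 0.12). Without wild-type replicate 2, 3 of the 18 passed, and without wild-type replicate 1, 4 passed. With a variance model without trend 2 passed, and with a filter at the 60th percentile the median was -0.519 over the 14 genes kept.

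Of 14 measured genes that mark the hypothalamus, 4 fell and 0 rose. Pmch, the precursor of melanin-concentrating hormone, which drives feeding, read 111.6, 101.6, 91.7 and 77.1 in transgenic mice 1 to 4 and 366.0, 381.2 and 409.2 in the wild-type mice (log2 fold change -1.97, SE 0.12, adjusted p = 0.00012). Cartpt, a satiety peptide precursor, read 54.0, 103.0, 38.4 and 51.0 in transgenic mice 1 to 4 and 210.4, 186.5 and 147.4 in the wild-type mice (log2 fold change -1.55, SE 0.25, adjusted p = 0.012). Avp, vasopressin, read 32.5, 86.3, 38.4 and 28.3 in transgenic mice 1 to 4 and 95.8, 161.5 and 148.5 in the wild-type mice (log2 fold change -1.53, SE 0.31, adjusted p = 0.027). Transgenic replicate 2 was the highest transgenic mouse for Cartpt and Avp, and no genotypes overlapped. Hcrt, the orexin precursor made by neighbouring neurons of the lateral hypothalamus, read 47.7, 65.9, 52.7 and 53.3 in transgenic mice 1 to 4 and 54.8, 69.0 and 73.1 in the wild-type mice and overlapped (log2 fold change -0.24, adjusted p = 0.47), and Oxt, oxytocin, read 96.5, 116.6, 67.1 and 82.3 in transgenic mice 1 to 4 and 126.8, 88.8 and 127.2 in the wild-type mice and overlapped as well. Of the 14 hypothalamic genes, 2 passed when wild-type replicate 2 was left out. Over the wider list of 25 measured neuropeptides, 11 fell and 0 rose, with a median of -0.49. That count was 4 without wild-type replicate 2, 6 without wild-type replicate 1 and 7 without transgenic replicate 1.

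The pituitary hangs from the hypothalamus, and its markers are given beside the hypothalamic genes. Gh, growth hormone, read 6.6, 557.5, 1018.6 and 94.6 in transgenic mice 1 to 4 and 13.3, 12.1 and 26.7 in the wild-type mice. Transgenic replicates 2 and 3 were above 300 and the other 5 mice below 100. Gh did not pass the threshold (log2 change 2.89, SE 1.17, adjusted p = 0.24), and neither did Prl, prolactin, at 2.2, 17.6, 79.5 and 25.8 in transgenic mice 1 to 4 and 11.6, 27.5 and 10.4 in the wild-type mice. Pomc, made in both the pituitary and the hypothalamus, read 55.3, 93.5, 79.4 and 47.1 in transgenic mice 1 to 4 and 30.9, 22.6 and 49.9 in the wild-type mice and overlapped. Of 15 pituitary genes listed, 4 passed the filter on low signals, 0 were called, and their summed signal was 133.3 to 1238.4 in transgenic and 125.1 to 189.4 in wild-type mice. Without both arrays high in Gh, 4 of the 14 hypothalamic genes passed as lower.

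Markers of thalamus and midbrain, including the monoamine neurons, had a median of -0.67 over 16 measured genes, of which 8 fell and 0 rose. Prkcd, a kinase of thalamic relay neurons, read 91.5, 123.7, 89.5 and 100.7 in transgenic mice 1 to 4 and 241.1, 252.8 and 186.9 in the wild-type mice (log2 fold change -1.12, SE 0.14, adjusted p = 0.0031). The other probe set of Prkcd had a log2 fold change of -0.40. Tph2, the enzyme that makes serotonin in raphe neurons, read 16.7, 18.4, 7.3 and 10.7 in transgenic mice 1 to 4 and 48.9, 41.1 and 37.3 in the wild-type mice (log2 fold change -1.40, SE 0.24, adjusted p = 0.015). The genotypes were separate for both, and transgenic replicates 3 and 4 were lowest for Tph2. Tph2 passed the filter on low signals only through the wild-type mice, so it had to differ. Among dopamine neuron genes, the transporter gene Slc6a3 fell by 0.99, the tyrosine hydroxylase gene Th by 0.69 and the decarboxylase gene Ddc by 0.65. The vesicular monoamine transporter gene Slc18a2 fell by 0.86. Ramp3, a receptor-modifying protein of the thalamus, fell by 0.74 and the G-protein regulator Rgs16 by 0.84. These monoamine transcripts had low signals, Th between 30.7 and 66.7. The count was 1 without wild-type replicate 2, 2 without wild-type replicate 1, 4 without wild-type replicate 3 or transgenic replicate 4 and 5 without transgenic replicate 1 or 3. Without both arrays high in Gh it was 4.

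Immediate early genes are those that neurons switch on within minutes of activity. Of 43 measured, 15 fell in transgenic mice (34.9%, against 2.57% of all genes) and 0 rose, with a median of -0.42. Every transgenic mouse was below every wild-type mouse for 24 of the 43, against 8.99% of all genes. Some immediate early genes carry promoter elements for the activity-dependent factors CREB, which binds the CRE, and serum response factor, which binds the CArG box. The 250 bases before the annotated start are shown for 1 called gene with each element, from RefSeq on GRCm38.p6: Dusp1 (chr17:26508473-26508722, - strand) with the CRE letters TGACGTCA in capitals, and Dusp5 (chr19:53528895-53529144, + strand) with its CArG boxes in capitals.
Dusp1: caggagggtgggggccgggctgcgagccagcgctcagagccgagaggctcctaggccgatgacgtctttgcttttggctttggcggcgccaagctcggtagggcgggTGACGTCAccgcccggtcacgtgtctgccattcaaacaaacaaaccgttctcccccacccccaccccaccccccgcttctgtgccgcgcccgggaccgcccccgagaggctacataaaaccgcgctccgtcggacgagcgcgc
Dusp5: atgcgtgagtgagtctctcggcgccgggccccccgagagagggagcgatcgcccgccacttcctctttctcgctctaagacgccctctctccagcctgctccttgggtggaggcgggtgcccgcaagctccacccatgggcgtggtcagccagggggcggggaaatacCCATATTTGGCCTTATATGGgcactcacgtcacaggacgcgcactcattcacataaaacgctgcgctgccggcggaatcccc
The CRE in Dusp1 begins 143 bases before the start, and the 2 adjoining CArG boxes of Dusp5 begin 82 and 72 bases before it. Both strands were searched. Of all 27025 genes with such a window, 1.77% held the CRE letters and 1.62% a CArG box. Of 33 measured immediate early genes with a window, 4 held a CRE and 2 a CArG box, and among the 10 of these that were called, 1 held each. A match describes letters in this window and no more.

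Dusp5, a nuclear phosphatase that switches off the MAP kinase ERK, read 19.3, 7.0, 31.5 and 26.3 in transgenic mice 1 to 4 and 131.6, 114.2 and 99.5 in the wild-type mice (log2 fold change -2.30, SE 0.31, adjusted p = 0.0056). This was the widest fall of any gene called. Dusp1, a related phosphatase, read 346.8, 333.6, 508.0 and 398.7 in transgenic mice 1 to 4 and 662.8, 815.7 and 708.9 in the wild-type mice (log2 fold change -0.88, SE 0.14, adjusted p = 0.0085). Dusp14, another member of that family, fell by 0.84. Arc, which controls AMPA receptor uptake at synapses, read 81.4, 52.9, 124.0 and 99.7 in transgenic mice 1 to 4 and 241.9, 235.9 and 246.7 in the wild-type mice (log2 fold change -1.44, SE 0.21, adjusted p = 0.0079). Its wild-type signals were close together, and its transgenic signals were lower and spread more widely. Of the transcription factor genes, Bhlhe40 fell by 0.99, Fosl2 by 0.87, Nr4a1 by 0.85, Egr3 by 0.73, Nr4a2 by 0.71, Klf10 by 0.70 and Nr4a3 by 0.64. The other probe set of Egr3 had a log2 fold change of -0.11. Nptx2, a pentraxin secreted at excitatory synapses, fell by 1.21, Ptgs2, a prostaglandin synthase, by 0.88, Ier5 by 0.44 and the G-protein regulator Rgs2 by 0.34. Nptx2 passed the filter on low signals only through the wild-type mice, so it had to differ. Fos, the most used marker of recent activity, read 429.3, 230.7, 542.5 and 395.8 in transgenic mice 1 to 4 and 607.9, 635.5 and 668.5 in the wild-type mice, did not overlap and did not pass (log2 fold change -0.73, adjusted p = 0.11). Bdnf, a growth factor supplied by cortex to striatum, read 92.3, 70.1, 58.2 and 100.3 in transgenic mice 1 to 4 and 118.1, 115.6 and 89.3 in the wild-type mice and overlapped. The count was 7 without wild-type replicate 1, 8 without wild-type replicate 2 or 3, 9 without transgenic replicate 1, and 8 without both arrays high in Gh.

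Interferon-induced genes gave more rises by count than any other list. As a share of measured genes the rises were 29.7%, against 29.4% in the meninges and fibroblast list and 0.779% of all genes. Of 37 measured, 11 rose and 0 fell, with a median of 0.58. Every transgenic mouse was above every wild-type mouse for 21 of the 37, against 9.77% of all genes. Type I interferon activates STAT and IRF proteins that bind an interferon-stimulated response element, of which GAAANNGAAA is the core repeat. The 250 bases before the start of the 2 called genes whose window held those letters are shown from RefSeq on GRCm38.p6, Ifit1 (chr19:34640639-34640888, + strand) and Gbp2 (chr3:142620413-142620662, + strand), with the matches in capitals as they read on the printed strand, TTTCNNTTTC.
Ifit1: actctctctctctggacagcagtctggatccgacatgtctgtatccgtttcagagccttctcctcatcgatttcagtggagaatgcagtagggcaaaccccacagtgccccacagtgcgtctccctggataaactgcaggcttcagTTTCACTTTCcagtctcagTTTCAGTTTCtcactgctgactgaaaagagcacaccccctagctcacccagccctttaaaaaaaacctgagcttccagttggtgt
Gbp2: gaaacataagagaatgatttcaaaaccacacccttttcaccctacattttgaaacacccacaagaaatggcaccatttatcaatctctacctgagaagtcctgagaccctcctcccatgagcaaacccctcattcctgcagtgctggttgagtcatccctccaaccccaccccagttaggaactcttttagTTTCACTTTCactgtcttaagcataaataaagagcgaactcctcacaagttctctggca
Matches begin 104 and 85 bases before the start in Ifit1 and 59 bases before it in Gbp2. Of all 27025 genes with a window, 3.46% held the letters on either strand. Of 30 measured interferon-induced genes with a window, 10 did, and of the 8 of these that rose, 2 did. No match says only that these letters are not in this window. This list was also chosen with earlier results of these data known, so its direction is not independent evidence.

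Ifitm3, a membrane protein that blocks virus entry, read 325.2, 340.7, 328.0 and 321.8 in transgenic mice 1 to 4 and 180.9, 174.3 and 188.0 in the wild-type mice (log2 fold change 0.84, SE 0.07, adjusted p = 0.00098). Rtp4, a receptor transport protein, read 86.6, 77.5, 109.7 and 99.3 in transgenic mice 1 to 4 and 32.4, 19.4 and 35.3 in the wild-type mice (log2 fold change 1.54, SE 0.19, adjusted p = 0.0031). Ifit1, which binds foreign RNA, read 52.8, 31.1, 43.2 and 50.3 in transgenic mice 1 to 4 and 19.0, 9.5 and 19.1 in the wild-type mice (log2 fold change 1.24, SE 0.23, adjusted p = 0.021). For each of them the lowest transgenic mouse was above the highest wild-type mouse. Usp18, the protease that removes ISG15 and restrains interferon signalling, rose by 1.22, Oasl2, an oligoadenylate synthetase relative, by 1.16, Xaf1 by 0.95 and Trim25, a ubiquitin ligase of RNA sensing, by 0.88. Usp18 and Oasl2 passed the filter on low signals only through the transgenic mice, so they had to differ. Gbp2, a guanylate-binding protein, rose by 0.84, Lgals3bp by 0.79, Ifi35 by 0.75 and Ifi27 by 0.58. Ifi27l2a read 45.4, 40.1, 52.3 and 32.6 in transgenic mice 1 to 4 and 11.1, 1.6 and 25.1 in the wild-type mice without overlap and did not pass (log2 fold change 1.65, adjusted p = 0.057). The class I histocompatibility genes of this list were uneven in wild-type mice. H2-D1 read 452.3, 350.0, 369.7 and 307.9 in transgenic mice 1 to 4 and 403.9, 33.6 and 540.0 in the wild-type mice, and H2-K1 read 296.2, 198.4, 180.8 and 197.2 in transgenic mice 1 to 4 and 181.7, 30.2 and 251.5 in the wild-type mice, so that wild-type replicate 2 alone was low for both. The labels do not give the histocompatibility haplotype of any mouse, and whether that of wild-type replicate 2 differs was not tested. Without wild-type replicate 2, and likewise without wild-type replicate 1, 6 of the 37 passed, and 7 did without transgenic replicate 1 or without both arrays high in Gh.

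**Figure D4:**
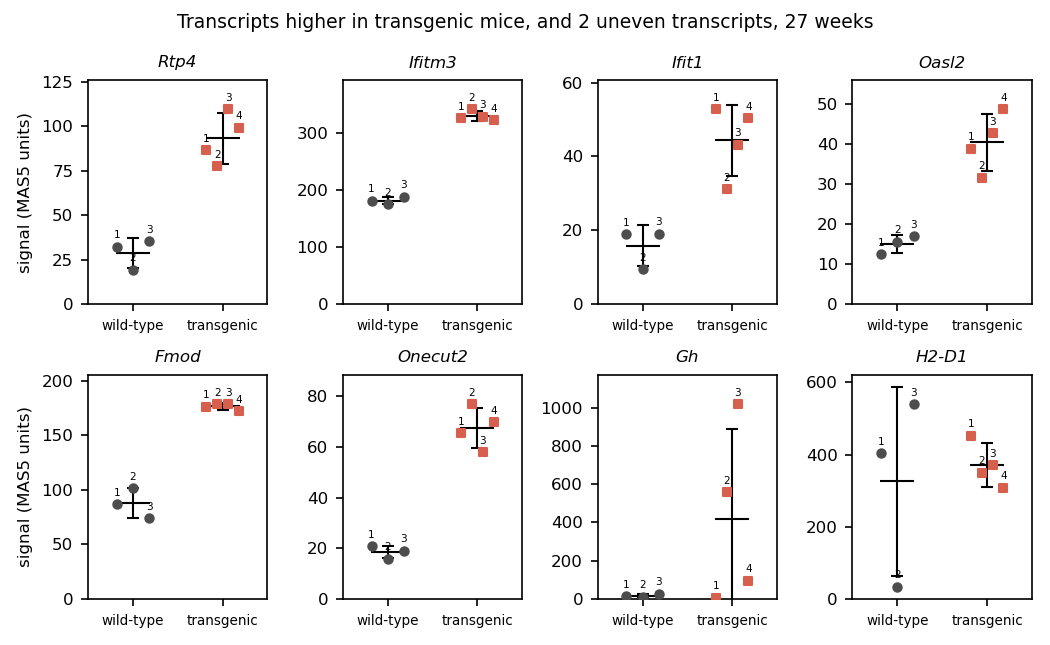
Signal (MAS5 units, y axis from 0) of 8 transcripts in 3 wild-type mice (circles) and 4 transgenic mice (squares), numbered by replicate, with mean and SD. Rtp4, Ifitm3, Ifit1, Oasl2, Fmod and Onecut2 are higher in every transgenic mouse, whereas Gh is high in transgenic replicates 2 and 3 and H2-D1 is low in wild-type replicate 2 at 33.6.

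Of 23 measured markers of microglia, the brain's resident immune cells, 0 were called and 1 had an unadjusted p under 0.05 in limma. Their median was 0.08. Of all genes, 0.779% were called higher and 2.57% lower, and a count of 0 in a list of this size lies near these shares. The difference from the interferon-induced genes was not tested. Csf1r, the growth factor receptor on which microglia depend, read 964.8, 889.4, 990.0 and 878.9 in transgenic mice 1 to 4 and 785.7, 780.3 and 751.1 in the wild-type mice and did not overlap (log2 fold change 0.27, adjusted p = 0.077). C1qa, a complement subunit, read 308.9, 276.7, 279.9 and 279.5 in transgenic mice 1 to 4 and 279.6, 251.3 and 209.0 in the wild-type mice and overlapped. Of 19 endothelial and mural genes, 0 were called by limma and 1 had an unadjusted p under 0.05, with a median of 0.10. Ptprc, the leukocyte antigen CD45, read 36.6, 34.4, 39.1 and 36.2 in transgenic mice 1 to 4 and 23.1, 23.4 and 21.3 in the wild-type mice without overlap and did not pass (log2 fold change 0.58, adjusted p = 0.07).

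Genes of the meninges and of fibroblasts, the tissue at the brain surface, rose in part. Of 17 measured, 5 rose (29.4%, against 0.779% of all genes) and 0 fell, with a median of 0.34. Every transgenic mouse was above every wild-type mouse for 11 of the 17, against 9.77% of all genes. Fmod, the collagen-binding proteoglycan fibromodulin, read 176.2, 178.6, 178.6 and 172.0 in transgenic mice 1 to 4 and 86.9, 101.5 and 74.2 in the wild-type mice (log2 fold change 0.98, SE 0.11, adjusted p = 0.0021). Igfbp2, a binding protein for insulin-like growth factors, read 437.7, 479.4, 461.5 and 395.6 in transgenic mice 1 to 4 and 302.0, 295.8 and 252.6 in the wild-type mice (log2 fold change 0.64, SE 0.09, adjusted p = 0.0075). Both showed a narrow spread within each genotype. Col3a1, a fibrillar collagen, rose by 0.96, Ogn by 0.71 and Col1a2 by 0.57. The summed signal of the 17 genes was 6800.4 to 7699.9 in transgenic and 5628.8 to 6215.2 in wild-type mice. The count was 2 without wild-type replicate 2 or 3, without transgenic replicate 2 or without both arrays high in Gh, and 3 without transgenic replicate 1 or 4 or wild-type replicate 1.

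Astrocytes clear transmitters and buffer ions around synapses. Of 28 measured astrocyte transcripts, 12 fell in transgenic mice (42.9%, against 2.57% of all genes) and 0 rose, with a median of -0.37. Slc1a2, the main transporter that clears glutamate, read 2225.0, 2082.4, 2007.9 and 1902.7 in transgenic mice 1 to 4 and 3405.5, 3257.9 and 2498.2 in the wild-type mice (log2 fold change -0.56, SE 0.10, adjusted p = 0.02). Slc6a11, a GABA transporter, read 182.8, 244.1, 206.4 and 234.1 in transgenic mice 1 to 4 and 316.6, 374.0 and 351.3 in the wild-type mice (log2 fold change -0.67, SE 0.11, adjusted p = 0.011). The genotypes did not overlap for either transporter. The metallothionein genes Mt1 and Mt2, which bind zinc, fell by 0.67 and 0.57, the bicarbonate transporter gene Slc4a4 and Ppp1r3c, a regulator of glycogen, each by 0.51, and the connexin gene Gja1 by 0.44. Gfap, the filament protein of reactive astrocytes, read 285.4, 130.8, 94.2 and 81.1 in transgenic mice 1 to 4 and 291.3, 284.1 and 163.7 in the wild-type mice and overlapped (log2 fold change -0.84, adjusted p = 0.26). The number of astrocyte genes called depended on single arrays: it was 1 without wild-type replicate 2, 3 without wild-type replicate 1, 6 to 8 without any other array, and 2 without both arrays high in Gh. With a variance model that ignores intensity it was 0. The list median stayed between -0.40 and -0.37 when any single array was left out.

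In the oligodendrocyte list, 6 of 29 measured genes fell and 0 rose, while the median was -0.03. Of the 29, 13 had a positive log2 fold change, and 3 had every transgenic mouse above every wild-type mouse, against 9.77% of all genes. Car2, a carbonic anhydrase of myelinating cells, read 1130.2, 1003.2, 1068.8 and 989.7 in transgenic mice 1 to 4 and 1714.4, 1596.2 and 1646.9 in the wild-type mice (log2 fold change -0.66, SE 0.07, adjusted p = 0.0017). Ugt8a and Fa2h, enzymes of the myelin lipids, fell by 0.49 and 0.54, Mal, a myelin proteolipid, by 0.56, Tspan2 by 0.52 and Aspa, which splits N-acetylaspartate for myelin lipid synthesis, by 0.40. When 1 array was left out, 1 to 4 genes of the list passed as lower, the lowest count without wild-type replicate 3. In the same list 1 gene passed as higher without transgenic replicate 2, without transgenic replicate 3 and without both arrays high in Gh. With array weights or a filter at the 60th percentile, 1 did as well. Sterol synthesis, which myelin also draws on, gave 4 falls and 0 rises of 20 measured, with a median of -0.32. Cyp51, the lanosterol demethylase, read 142.9, 106.2, 105.9 and 98.2 in transgenic mice 1 to 4 and 186.2, 172.9 and 190.1 in the wild-type mice (log2 fold change -0.68, SE 0.13, adjusted p = 0.019). Msmo1 fell by 0.58, Stard4, a sterol carrier, by 0.54 and Fdft1, squalene synthase, by 0.46. Of the sterol genes, 0 passed without wild-type replicate 1 or 3, 1 without wild-type replicate 2, transgenic replicate 4 or both arrays high in Gh, and 3 to 5 without the others.

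Channels and transmitter receptors were counted across all regions, and these lists share genes with those above. Of 44 potassium channel genes measured, 10 fell and 0 rose, with a median of -0.24. Kcnma1, the BK channel, read 274.5, 275.1, 298.1 and 329.3 in transgenic mice 1 to 4 and 460.4, 459.8 and 372.1 in the wild-type mice (log2 fold change -0.54, SE 0.10, adjusted p = 0.02). Kcnip4 fell by 0.61, Kcnj9 by 0.60, Kcnn2 by 0.52 and Kcna1 by 0.38. Of 23 glutamate receptor genes, 4 fell and 0 rose. Grm4, a presynaptic receptor abundant on parallel fibres, read 87.3, 132.7, 96.6 and 89.3 in transgenic mice 1 to 4 and 189.9, 192.4 and 184.3 in the wild-type mice (log2 fold change -0.88, SE 0.14, adjusted p = 0.0087). Grm2 and Grm3, which also couple to inhibitory G proteins, fell by 0.78 and 0.65. Of 15 genes of GABA receptors and transport, 2 fell. Gabrd, the extrasynaptic receptor subunit of granule cells and forebrain neurons, read 174.1, 269.0, 256.0 and 186.9 in transgenic mice 1 to 4 and 363.0, 387.8 and 395.4 in the wild-type mice (log2 fold change -0.80, SE 0.14, adjusted p = 0.017). Transgenic replicates 2 and 3 were higher than replicates 1 and 4 for Gabrd. Between 2 and 9 of the potassium channel genes passed when 1 array was left out, the lowest count without wild-type replicate 2, and 3 did without both arrays high in Gh. Without wild-type replicate 2, 1 glutamate receptor gene and 0 of the GABA list passed in limma. When any other single array was left out, 2 or 3 glutamate receptor genes and 1 or 2 of the GABA list did. A variance model without trend gave 1 and 0.

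Protein quality control genes gave calls at a share near that of all genes. Of 34 chaperone genes measured, 1 fell (2.9%, against 2.57% of all genes) and 0 rose, with a median of 0.04. Of 31 proteasome subunits 0 passed, where 0.779% of all genes were called higher. In limma 6 of the 31 had an unadjusted p under 0.05, with a median of 0.11 and 28 positive values. Hspa1b, an inducible heat shock protein 70, read 61.4, 76.3, 79.9 and 71.1 in transgenic mice 1 to 4 and 180.1, 110.0 and 151.4 in the wild-type mice (log2 fold change -0.96, SE 0.16, adjusted p = 0.013). Psmd3 of the proteasome lid read 377.6, 398.1, 380.9 and 347.3 in transgenic mice 1 to 4 and 257.2, 312.0 and 329.7 in the wild-type mice and did not pass (log2 fold change 0.33, adjusted p = 0.11).

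The largest rise of a called gene was in a developmental regulator. Onecut2, a homeobox transcription factor, read 65.4, 76.9, 57.9 and 69.8 in transgenic mice 1 to 4 and 20.7, 15.9 and 19.0 in the wild-type mice (log2 fold change 1.61, SE 0.15, adjusted p = 0.0012). Sfmbt2, a Polycomb-group protein, read 64.6, 58.4, 54.3 and 50.1 in transgenic mice 1 to 4 and 16.4, 15 and 29.0 in the wild-type mice (log2 fold change 1.32, SE 0.20, adjusted p = 0.0081). The genotypes did not overlap for either gene. These 2 rose and Lhx1 fell among 24 developmental regulators measured, with a list median of 0.20. The 2 other probe sets of Onecut2 had log2 fold changes of 0.80 and 0.95, and the other of Lhx1 had -0.06. Sox3, a factor of neural progenitors, rose by 1.10. Skor1 and Msx2 did not overlap between genotypes and did not pass, at 0.55 and 0.74.

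Other genes among the 15 largest rises had low wild-type signals. Gapdhs, Fbln2, Brca1 and Gm2102 are among those that passed the filter only through the transgenic mice. Gapdhs, the sperm form of the glycolytic enzyme, read 25.3, 35.2, 19.4 and 19.8 in transgenic mice 1 to 4 and 4.4, 7.9 and 5.0 in the wild-type mice (log2 fold change 1.43, SE 0.25, adjusted p = 0.015). Slc5a5, the sodium-iodide symporter, read 88.5, 57.1, 105.2 and 69.0 in transgenic mice 1 to 4 and 40.9, 25.9 and 18.6 in the wild-type mice (log2 fold change 1.35, SE 0.24, adjusted p = 0.017). Fbln2, an extracellular matrix protein, rose by 1.27 and Brca1, a DNA repair protein, by 1.18. Fbln2 passed in 4 of 13 alternatives that gave it a value, and both Fbln2 and Gapdhs dropped below the filter without both arrays high in Gh. H2-Aa, a class II histocompatibility chain, read 70.8, 49.2, 39.4 and 47.9 in transgenic mice 1 to 4 and 27.9, 14.7 and 24.2 in the wild-type mice (log2 fold change 1.06, SE 0.23, adjusted p = 0.036). Gbp6, a guanylate-binding protein, rose by 0.98, and Gm2102, a gene without a common name, by 1.39.

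Among the 15 largest falls, 6 genes lie outside the groups described so far. Agt, angiotensinogen, which astrocytes secrete, read 176.8, 152.7, 87.2 and 162.0 in transgenic mice 1 to 4 and 405.5, 341.8 and 370.9 in the wild-type mice (log2 fold change -1.38, SE 0.20, adjusted p = 0.0064). Etnppl, a phospho-lyase enriched in astrocytes, read 105.9, 107.2, 79.8 and 143.4 in transgenic mice 1 to 4 and 323.1, 216.2 and 266.1 in the wild-type mice (log2 fold change -1.27, SE 0.18, adjusted p = 0.0063). The other probe set of Etnppl had a log2 fold change of -0.32. Il20rb, a cytokine receptor subunit, fell by 1.73, Plk5, a neuronal member of the polo-like kinase family, by 1.32 and Arhgef33, a predicted guanine nucleotide exchange factor, by 1.29. Il20rb passed the filter on low signals only through the wild-type mice, so it had to differ. Neat1, a nuclear long noncoding RNA, read 34.2, 132.9, 43.0 and 62.3 in transgenic mice 1 to 4 and 190.3, 168.5 and 190.2 in the wild-type mice (log2 fold change -1.53, SE 0.33, adjusted p = 0.039), whereas its other probe set had a log2 fold change of 0.49.

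The genotype difference at 27 weeks was set against the mean of the differences at 18 and 22 weeks. No probe set of 27021 passed for this contrast in limma (0.0% in either direction), and 1207 had an unadjusted p under 0.05. Among the wild-type arrays of the earlier ages, 3 read below 100 for Gabra6, so the values given here leave them out, which keeps 2 wild-type mice at 18 weeks and 1 at 22 weeks. In that fit 0 probe sets passed and 968 had an unadjusted p under 0.05. The Purkinje cell list had a median of -0.42 at the earlier ages and -0.61 at 27 weeks. Pcp2 had a log2 fold change of -0.70 earlier and -1.01 at 27 weeks, a difference of -0.31 (SE 0.20, adjusted p = 1). The striatal receptor list had medians of -0.73 and -0.66, and Penk values of -1.41 and -1.18. Interferon-induced genes had medians of 0.41 and 0.58, and immediate early genes medians of -0.49 and -0.42. With the 3 arrays low in Gabra6 kept in, the earlier medians were 0.05 for Purkinje cell genes and 0.70 for granule cell genes.

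The 6 genes with the smallest p for the difference between ages were ranked over all 18 arrays and did not pass. Their values below are from the fit without the 3 arrays low in Gabra6, in which their unadjusted p in limma lay between 0.00035 and 0.0026. Onecut2 had a log2 fold change of 0.81 at the earlier ages and 1.61 at 27 weeks (difference 0.80, SE 0.20, adjusted p = 1, without the 3 arrays). Gapdhs had 0.23 and 1.43, and Zmynd11, a chromatin reader, -0.01 and 0.45. Gapdhs passed the filter, which is set on the 27-week arrays, only through the transgenic mice, so its 27-week value had to be high. The 3 other probe sets of Zmynd11 had log2 fold changes of 0.03 to 0.16 at 27 weeks. Cacng3, a subunit of AMPA receptors, had -1.02 earlier and -0.40 at 27 weeks. Psd2 had 0.03 and -0.60, and Tbc1d8b had 0.35 and -0.33.

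**Figure D5:**
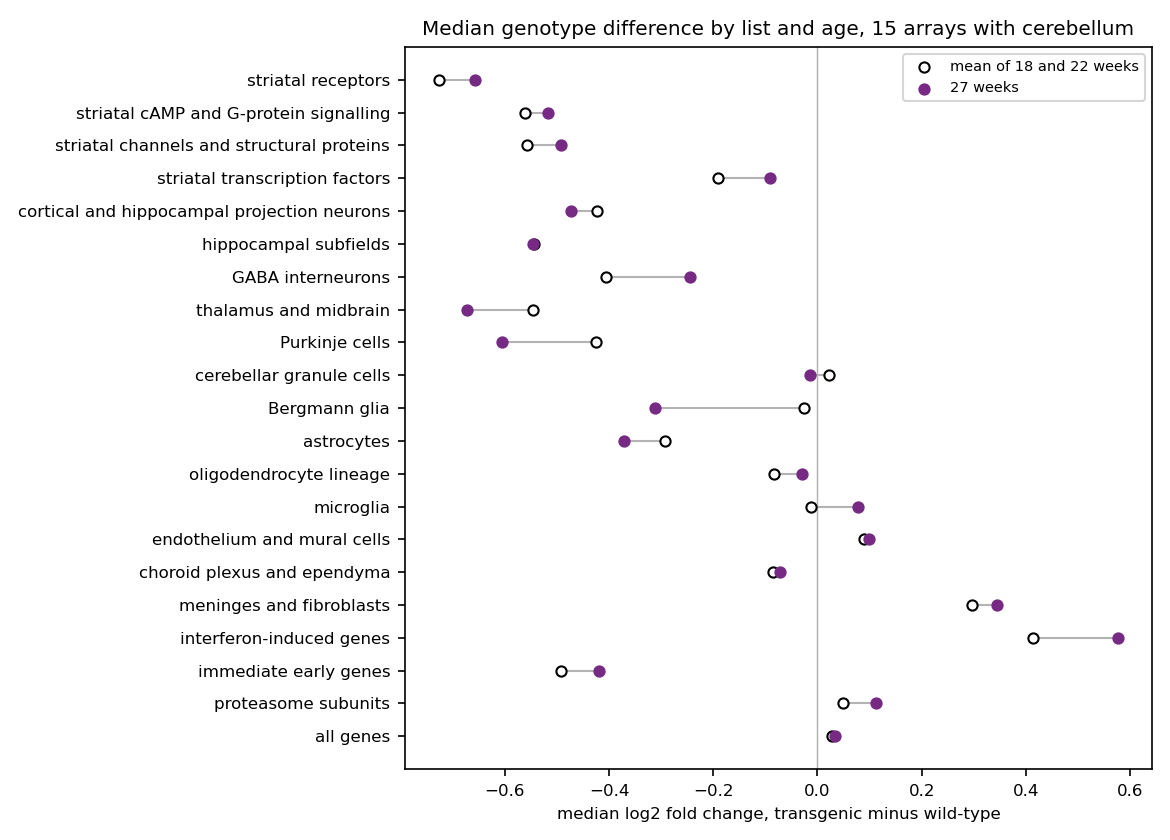
Median log2 fold change (transgenic minus wild-type, x axis) of 20 gene lists and of all genes, at 27 weeks (filled circles) and as the mean of 18 and 22 weeks (open circles), over the 15 arrays with Gabra6 above 100. Purkinje cell genes stand at -0.42 and -0.61, granule cell genes at 0.02 and -0.01, and all genes at 0.03 for both.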

How the data were processed

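Total RNA of 7 hemispheres was measured on 1-colour arrays, 1 per mouse, with 4 transgenic and 3 wild-type samples grouped by title. The deposited values are linear signal intensities made by the authors with MAS5, per the submitters' processing notes (version: not given in the sources used here). Every array had a 2% trimmed mean of 100, so nothing was rescaled. The table held 45101 probe sets, of which 64 controls were left out. The platform annotation named 1 gene for 34945 probe sets, several for 932 and none for 9160, and the last 2 kinds were tested but not named.

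Signals were used as log2(signal + 5.3), 5.3 being the 20th percentile over the 7 arrays, so fold changes of weak probe sets are understated. Probe sets with a mean above the 40th percentile, 15.7, were kept (27021 probe sets, 12574 genes by their brightest probe set). limma 3.58.1 in R 4.3.3 fitted the 7 arrays alone, with an intensity trend and Benjamini-Hochberg adjustment over all probe sets at 0.05. The difference between ages was fitted on all 18 arrays. Arrays have no read depth, so the number of mice limits precision. P-values measure the spread between these samples.

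The 34 gene lists and the comparison were chosen with earlier results of these data known, and lists were not tested as sets. Named genes are the 15 largest falls and rises past the threshold without overlap, the 5 smallest p of each list, the 6 smallest p of the difference between ages, and the defining genes of each tissue. Other genes named, such as further called members of a list, Pde10a, Fos, Bdnf, Hcrt, Oxt, Gfap, Fat2, Ifi27l2a, Slc6a4, H2-K1 and H2-D1, were chosen after their values were seen. Alternatives were other offsets, filters, scaling, weights, a variance model without trend, sex as covariate, all 18 arrays, all probe sets of a gene, and leaving out each array or both arrays high in Gh. On simulated data with 200 of 27021 probe sets changed, the fit at 27 weeks recovered 4.8% of changes of 0.3 log2 units, 40.4% of 0.6, 64% of 1 and 94.4% of 2, with 4% false calls. For the difference between ages, simulated on 27021 probe sets, 36.4% of changes of 0.6 and 69.2% of changes of 1 were recovered. In the real fit on all 18 arrays, the SE of this difference was 1.708 for Pcp2 and 1.789 for Gabra6. The simulated shares do not hold for genes with so wide a spread. No recovery is given for the fit without the 3 arrays low in Gabra6. The shares therefore do not show that a difference between ages is absent where no call was made. Promoter windows are from RefSeq, GRCm38.p6, by gene symbol.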

Additional observations from a re-analysis of the deposited data

Results flagged for a closer look

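Among 171 named genes, 17 had 1 of the 4 transgenic mice so far from the other 3 that its gap to the nearest took up most of the group's range of log2 signals, past the 95% critical value of Dixon's ratio, which chance gives in about 1 in 20 groups of 4. The groups of 3 wild-type mice were not screened.

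Of these, 4 were genes specific to a sex and set transgenic replicate 3 apart: Xist at 637.9, Eif2s3y at 1.1, Uty at 5.6 and Kdm5d at 0.1. The same mouse was the highest for Oprk1 at 31.0 and Foxp1 at 330.3, and the lowest for Tiam1 at 431.6 and Kcnn2 at 109.5.

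Transgenic replicate 1 was the lowest for Ppp1r1b at 127.3, Gpr6 at 23.1, Arpp19 at 598.7 and Doc2g at 21.0, and the highest for Hoxa5 at 86.4 and C1qa at 308.9. Ppp1r1b, Gpr6 and Arpp19 belong to the striatal lists, though many tissues express Arpp19, and their other 3 transgenic mice also lay below every wild-type mouse.

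Transgenic replicate 2 was the highest for the granule cell gene Grin2c at 127.3 and the lowest for Hoxc4 at 10.7. Transgenic replicate 4 was the lowest for the endothelial gene Emcn at 39.1.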

How the results depend on the processing

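No paired analysis was possible because the titles give no replicate numbers that link a transgenic to a wild-type mouse. Against 525 lower and 172 higher probe sets, a variance model without trend gave 172 lower and 70 higher, leaving out both arrays high in Gh gave 293 and 51, and no filter gave 97 higher. Leaving out single arrays gave 164 to 491 lower and 53 to 123 higher, with the lowest counts without wild-type replicate 2. These fits use fewer samples, and the cause of the other shifts was not tested. Of the called probe sets, 24.7% were higher, and 14.8% without both arrays high in Gh. List medians moved as follows: granule cell genes to -0.182 with a filter at the 60th percentile and -0.276 without both arrays high in Gh (-0.142 to 0.057 without single arrays); Purkinje cell genes to -0.452 over all probe sets of a gene; interferon-induced genes to 0.662 with that filter and 0.384 with an offset of 32. Projection neuron genes ranged from -0.493 to -0.357 without single arrays. Of 102 named genes called, 29 passed under each of the alternatives that gave a value, and 63 passed without both arrays high in Gh. All 102 kept their direction. Signals of the 2 genotypes did not overlap for any called gene. Leaving out arrays or changing the offset, filter or variance model therefore could not reverse a direction, and the 102 are no evidence of stability. For the difference between ages, 0 probe sets passed under every alternative run, with 963 to 2120 at an unadjusted p under 0.05. A change of 0.3 log2 units is mostly below what 4 against 3 arrays can call, and signals near 15.7 lie close to background.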

Other observations

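Tissues at the edge of a hemisphere were followed through lists not described above. Of 8 measured olfactory bulb genes, 1 fell, Th, which midbrain neurons share, and the median was -0.15. Th passed in limma without transgenic replicate 2 but not when any other single array was left out, and the median was -0.41 over 7 genes without transgenic replicate 3, -0.464 over 7 without both arrays high in Gh and 0.127 over 3 with a filter at the 60th percentile. Eomes, a factor of mitral and tufted cells, read 22.5, 20, 30.7 and 34.3 in transgenic mice 1 to 4 and 45.3, 30.4 and 86.6 in the wild-type mice, with wild-type replicate 3 the highest. Of 9 hindbrain and spinal cord genes measured, 0 passed and 1 had an unadjusted p under 0.05 in limma, and Slc6a5, the glycine transporter of hindbrain neurons, read 86.9, 101.8, 65.5 and 88.0 in transgenic mice 1 to 4 and 96.4, 106.0 and 135.6 in the wild-type mice. Of 15 choroid plexus and ependymal genes, 0 passed and 2 had an unadjusted p under 0.05 in limma, with a median of -0.07. Aqp1, a water channel of the choroid plexus, read 27.9, 41.5, 29.9 and 25.7 in transgenic mice 1 to 4 and 28.1, 27.8 and 22.9 in the wild-type mice, and the genotypes overlapped. Of 2 blood genes measured, 0 passed and 1 had an unadjusted p under 0.05 in limma, and Alas2, the haem enzyme of red cells, read 9.4, 27.5, 14.7 and 2.2 in transgenic mice 1 to 4 and 15.7, 14.4 and 26.3 in the wild-type mice.

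The serotonin transporter gene Slc6a4 read 15, 16.9, 1.9 and 2.8 in transgenic mice 1 to 4 and 36.7, 33.1 and 31.8 in the wild-type mice, with transgenic replicates 3 and 4 near 0, and did not pass (log2 fold change -1.62, adjusted p = 0.058). Without the 3 earlier wild-type arrays low in Gabra6, the pituitary list had a median of 0.62 at 27 weeks and -0.46 at the earlier ages over 4 measured genes, and 0 of them passed for the difference.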
